A study of Mus musculus with 12 samples.

Results

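Interferon-stimulated genes are genes whose transcription rises when a cell receives an interferon signal. A list of 37 of them was looked up by gene name in the liver count tables, which hold 54532 genes, and all 37 were found and had enough counts to be tested in every comparison. The list was drawn up by function, with earlier results of these data known. It holds 4 nucleic acid sensors, 5 transcription factors, 15 antiviral effectors, 7 interferon-inducible GTPases, 2 immunoproteasome subunits and 4 other interferon-inducible genes. The RNA came from whole livers of male mice with floxed PPARγ alleles that were injected at 8 weeks of age with an AAV8 virus and then fed a fast-food diet (FFD) with sugared drinking water for 2 or 5 months. In the PPARγ-KO groups the virus carried Cre recombinase under the TBG promoter, which is active in hepatocytes, and in the WT groups it carried eGFP under the same promoter. All 4 groups therefore shared the floxed alleles, a viral injection and the diet, and other liver cells of the PPARγ-KO mice kept the intact allele. Mice without the virus or on chow were not analysed here. There were 3 libraries in each of WT at 2 months, PPARγ-KO at 2 months, WT at 5 months and PPARγ-KO at 5 months.

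Cells detect displaced or foreign nucleic acid through sensors such as RIG-I and MDA5, and answer by releasing type I interferons. These act on neighboring cells through JAK kinases and a complex that contains STAT2 and IRF9 and binds the interferon-stimulated response element in promoters, whereas interferon gamma, made mainly by T and NK cells, acts through gamma-activated sites. In the liver, hepatocytes, Kupffer cells and endothelial cells all respond, and the products range from antiviral proteins to GTPases that attack intracellular vacuoles and proteasome subunits that prepare peptides for antigen presentation.

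The libraries held 16367775 to 27452284 counts, and hepatocyte markers summed to 56633 to 90347 normalized CPM in every library, with none of the 10 markers at 0. Normalized CPM are read counts put on a common library size with the TMM factors of edgeR. Pparg itself was not lower in the libraries labelled PPARγ-KO. Its mean was 39.3 ± 1.91 CPM (SD, n = 3) in WT and 56.3 ± 8.84 in PPARγ-KO at 2 months, and 38.5 ± 2.54 and 84.8 ± 9.06 at 5 months, which made log2 fold changes of 0.52 and 1.15 (adjusted p = 0.0309 and 2.57e-06 in edgeR). The count covers the whole gene, so it does not show whether the floxed part was removed, and every direction below rests on the labels. WT replicate 1 at 2 months lay farthest from its own group, and WT replicates 2 and 3 at 5 months lay closest to each other. The labels do not say whether each library came from its own animal, so p-values measure the spread between these libraries, which may be technical.

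Promoters of the list were read from RefSeq (GRCm38.p6) as windows of 250 bases before to 50 after the gene start. A window was given for 28 of the 37 genes, 35 windows in all, and none was given for Dhx58, Zbp1, Usp18, Oas2, Mx1, Mx2, Gbp6, Iigp1 and Ifi27. The core of the response element was searched as GAAANNGAAA on either strand (TTTCNNTTTC when read on the other one). It was present in 15 of the 35 windows (42.9%) against 1131 of 32851 windows of all genes (3.44%). The gamma-activated site, TTCNNNGAA, which reads the same on both strands, was present in 10 of the 35 (28.6%) against 8.3% of all windows. The motifs were searched separately, and matches may overlap. A match is a run of letters and not a shown binding site. Counted by gene, 15 of the 28 held the response element core and 10 a gamma-activated site. Of the 9 genes called at 2 months that had a window, 6 held the core and 1 the gamma-activated site, and of the 4 called at 5 months, 3 held the core and 0 the gamma-activated site.

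The sequences below are those of genes that differed between PPARγ-KO and WT livers and held the core, so that its place relative to the gene start can be seen. They read 5′ to 3′ along the gene's own strand, with the core in capitals. Ifih1, Ddx58 and Oas3 follow from a rule on the 5-month result, and the rest, called at 2 months, were chosen after their values were seen. For Isg15 (chr4:156200819-156200968, minus strand), Irgm1 (chr11:48871421-48871570, minus), Bst2 (chr8:71537473-71537622, minus), Ifit1 (chr19:34640739-34640888, plus) and Oas3 (chr5:120777660-120777809, minus) the 150 bases that end at the gene start are shown. For Ifih1 (chr2:62646206-62646235, minus), Ddx58 (chr4:40239804-40239833, minus) and Stat2 (chr10:128270266-128270295, plus) 30 bases around the core are shown.
Isg15: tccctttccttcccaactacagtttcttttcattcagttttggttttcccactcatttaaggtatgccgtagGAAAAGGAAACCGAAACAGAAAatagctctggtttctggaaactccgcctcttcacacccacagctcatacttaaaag
Irgm1: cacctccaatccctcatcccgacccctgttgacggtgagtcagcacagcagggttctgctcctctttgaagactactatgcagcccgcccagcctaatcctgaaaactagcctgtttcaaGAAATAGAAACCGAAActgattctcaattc
Bst2: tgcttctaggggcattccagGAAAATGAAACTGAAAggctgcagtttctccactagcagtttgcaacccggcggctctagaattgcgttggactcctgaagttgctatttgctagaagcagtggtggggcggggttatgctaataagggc
Ifit1: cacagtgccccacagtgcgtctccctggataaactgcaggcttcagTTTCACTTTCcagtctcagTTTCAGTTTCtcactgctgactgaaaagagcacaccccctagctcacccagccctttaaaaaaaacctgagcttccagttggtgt
Oas3: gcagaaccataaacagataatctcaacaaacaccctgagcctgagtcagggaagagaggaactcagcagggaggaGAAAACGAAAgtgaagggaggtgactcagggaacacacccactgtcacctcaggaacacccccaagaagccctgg
Ifih1: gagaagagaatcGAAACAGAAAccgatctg
Ddx58: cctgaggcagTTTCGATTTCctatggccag
Stat2: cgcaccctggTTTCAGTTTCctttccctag
Isg15 held 3 overlapping copies of the core, the first starting 78 bases before the gene start. Irgm1 and Bst2 held 2 overlapping copies each, starting 30 and 130 bases before it, and Ifit1 held 2 separate copies on the opposite strand, the farther one at 104 bases. The core of Ifih1 lay at position 33 and that of Ddx58 at position 3 counted from the gene start, inside the transcribed part, and that of Stat2 lay 222 bases before it. Oas3, the gene that was lower in PPARγ-KO livers at 5 months, held 1 core at 75 bases.

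The first comparison asked how interferon-stimulated genes differed between PPARγ-KO and WT livers after 2 months of FFD. Of the 37 genes, 11 were higher in the PPARγ-KO-labelled livers and 0 were lower, at an adjusted p below 0.05 in edgeR's quasi-likelihood test (29.7% higher, against 1.78% of the 14573 genes tested, with 1.78% lower). DESeq2 called 15 higher and 0 lower, and at an unadjusted p below 0.05 edgeR had 21 higher and 1 lower, the last being Irf8. Shares of all genes called were counted for edgeR's adjusted p, and for its unadjusted p in the interaction only. The DESeq2 and unadjusted counts here and below therefore cannot be set against the shares given. The log2 fold change was positive for 31 of 37, with a median of 0.32 against 0.00 over all genes tested. In 21 genes all 3 PPARγ-KO libraries lay above all 3 WT libraries (12.1% of all genes did), and in none did they lie below (12% of all genes). The summed level of the 37 genes was 972, 994 and 950 CPM in the WT libraries and 1267, 1257 and 1431 in the PPARγ-KO libraries.

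The gains were small, from 0.31 to 0.74 on the log2 scale, and most of them depended on having all 6 libraries. The count of 11 was also 11 without WT replicate 1, but it was 1 without WT replicate 2, 2 without WT replicate 3, 2 without PPARγ-KO replicate 1, 2 without PPARγ-KO replicate 2 and 3 without PPARγ-KO replicate 3. Scaled by library size only, without TMM factors, it was 4. In none of these did a gene of the list pass as lower. Irgm1 was the call that held in all 13 alternative fits. Hepatocyte marker sums lay in the same direction as these genes, at 57947 to 72313 CPM in WT and 75458 to 90347 in PPARγ-KO libraries. They were dominated by Alb, with means of 44907 and 57732 CPM, and 1 of 10 markers was called higher. The sums of Kupffer cell and macrophage markers overlapped (474 to 616 and 527 to 592). Within that list of 11 markers, 1 was called higher and 1 lower. Timd4, a marker of resident Kupffer cells, stood at 5.63 to 7.25 CPM in WT and 10.5 to 12.8 in PPARγ-KO libraries (0.87, adjusted p = 0.0154), and Ccr2, a marker of recruited monocytes, at 6.82 to 7.61 and 2.75 to 3.76 (-1.18, adjusted p = 0.0107). The resident markers Clec4f and Vsig4 also had every PPARγ-KO library above WT without passing (0.31 and 0.25, adjusted p = 0.0536 and 0.128). Cd5l of the same list overlapped, at 142.5 to 207.9 CPM in WT and 139.2 to 159.1 in PPARγ-KO libraries. Over the 11 markers, 7 had a positive and 4 a negative log2 fold change. The part of cell composition in the result was not tested, and in whole tissue more cells of a type and more RNA per cell cannot be told apart.

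Among the 4 sensors, 2 were higher, both of them RNA helicases. Ifih1, which encodes MDA5, stood at 49.1, 51.8 and 44.6 CPM in WT and 60.2, 61.2 and 59.7 in PPARγ-KO libraries at 2 months, 0.31 ± 0.0744 (standard error of the fit) higher on the log2 scale (adjusted p = 0.0497). Dhx58, which encodes LGP2, a helicase that modulates RIG-I and MDA5 signaling, stood at 13.4, 16.2 and 15.1 CPM in WT and 21.7, 20.6 and 19.0 in PPARγ-KO libraries (0.45 ± 0.106, adjusted p = 0.0469). The groups did not overlap for either gene. Ddx58, which encodes RIG-I, was also separate (42.1 to 45.2 against 50.8 to 54.4 CPM) but did not pass the test (log2 difference 0.28, adjusted p = 0.0613), and Zbp1, a sensor of Z-form nucleic acid that can trigger cell death, had overlapping libraries (0.32, adjusted p = 0.552).

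Of the transcription factors, 3 of 5 were higher. Irf9, the DNA-binding partner of the STAT complex, stood at 33.7, 31.4 and 28.8 CPM in WT and 39.4, 43.9 and 49.7 in PPARγ-KO libraries, 0.50 ± 0.101 higher (adjusted p = 0.0268). Stat2, a STAT partner of Irf9, stood at 62.9, 71.6 and 70.5 against 84.4, 85.3 and 94.1 CPM (0.36 ± 0.078, adjusted p = 0.034). Irf7, which amplifies interferon production, stood at 37.9, 42.7 and 37.8 against 48.6, 56.2 and 53.9 CPM (0.42 ± 0.0837, adjusted p = 0.0257). For all 3 genes every PPARγ-KO library lay above every WT library. Irf1, an activator induced by interferon gamma, differed by 0.09 and Irf8, a factor of macrophages and dendritic cells, by -0.35 (adjusted p = 0.762 and 0.26), both with overlapping groups. Irf9 shares 123 bases with the same-strand gene Rnf31, and Irf7 shares 45 with Phrf1 on the opposite strand, so some of their reads are uncertain.

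Of the 15 antiviral effectors, 4 were higher. Isg15, a ubiquitin-like modifier, had the largest gain of the list, 0.74 ± 0.164 (adjusted p = 0.0392), from 5.13, 6.18 and 6.29 CPM in WT to 8.07, 10.3 and 10.9 in PPARγ-KO libraries. Ifit1, which binds RNA that lacks a host-type cap, rose by 0.67 ± 0.11 (adjusted p = 0.0144), from 11.7, 10.9 and 9.64 to 16.9, 17.7 and 16.5 CPM. Oasl1, an oligoadenylate synthetase-like protein, stood at 14.7, 17.5 and 14.3 CPM in WT and 26.6, 25.02 and 19.1 in PPARγ-KO libraries (0.60 ± 0.14, adjusted p = 0.0474). Each of these genes was separate between the groups, although the lowest Oasl1 value in the PPARγ-KO libraries, in replicate 3, came close to the highest WT value. Bst2, or tetherin, which holds budding virus on the cell surface, went from 102, 111 and 113 CPM to 139, 144 and 139 CPM (0.37 ± 0.0688, adjusted p = 0.0207). The remaining 11 effectors did not pass. They ran from Ifit2 at -0.38, whose WT libraries spread from 6.22 to 16.5 CPM, through Oas2 (-0.31), Isg20 (-0.25), Oasl2 (-0.14), Mx1 (0.05), Oas3 (0.11), Usp18 (0.14), Rsad2 (0.16), Oas1a (0.24) and Ifit3 (0.32), to Mx2 at 0.45.

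The interferon-inducible GTPases had the highest median of the roles at 2 months, 0.61, with 6 of 7 genes separate between the groups and 2 called. Irgm1, a regulator of this GTPase family, stood at 47.2, 47.4 and 43.1 CPM in WT and 64.6, 72.0 and 75.9 in PPARγ-KO libraries, 0.63 ± 0.0809 higher (adjusted p = 0.00549, and 2.95e-10 to 0.0307 over the alternatives). Iigp1, which acts on parasite vacuoles, stood at 237, 198 and 197 against 348, 284 and 382 CPM (0.68 ± 0.119, adjusted p = 0.0187), the largest gain in CPM of the list. Igtp had the largest fold of this role that did not pass (0.73, adjusted p = 0.216), since its PPARγ-KO libraries ran from 27.2 to 55.7 CPM with replicate 3 on top. PPARγ-KO replicate 3 was also the highest library for Gbp3 (0.45), Gbp6 (0.61) and Gbp7 (0.48), none of which passed, and for Gbp2, which overlapped at -0.11. Gbp6 shares 22994 bases with the same-strand gene Gm43302, which had 6 counts over 12 libraries, so some of its reads are uncertain. The guanylate-binding proteins of the Gbp genes coat vacuoles and help to activate inflammasomes.

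Psmb8 and Psmb9, catalytic subunits of the immunoproteasome, differed by 0.52 and 0.29 at 2 months without passing (adjusted p = 0.0978 and 0.196), with separate groups in both. Psmb9 shares 212 bases with Tap1, on the opposite strand. The other interferon-inducible genes were Ifi27, a mitochondrial protein gene that rises strongly with interferon (0.44, adjusted p = 0.0536), Ifi35 (0.38, 0.0982), Ifi44 (0.22, 0.662) and the apoptosis factor gene Xaf1 (0.17, 0.597). Same-numbered libraries at 2 months correlated more than others did, but a pairing was not shown. With the replicate number as a block Ifi27 passed in edgeR as well (adjusted p = 0.0171), for 12 genes called. The plot of levels by library shows the called genes of both times.

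**Figure D1:**
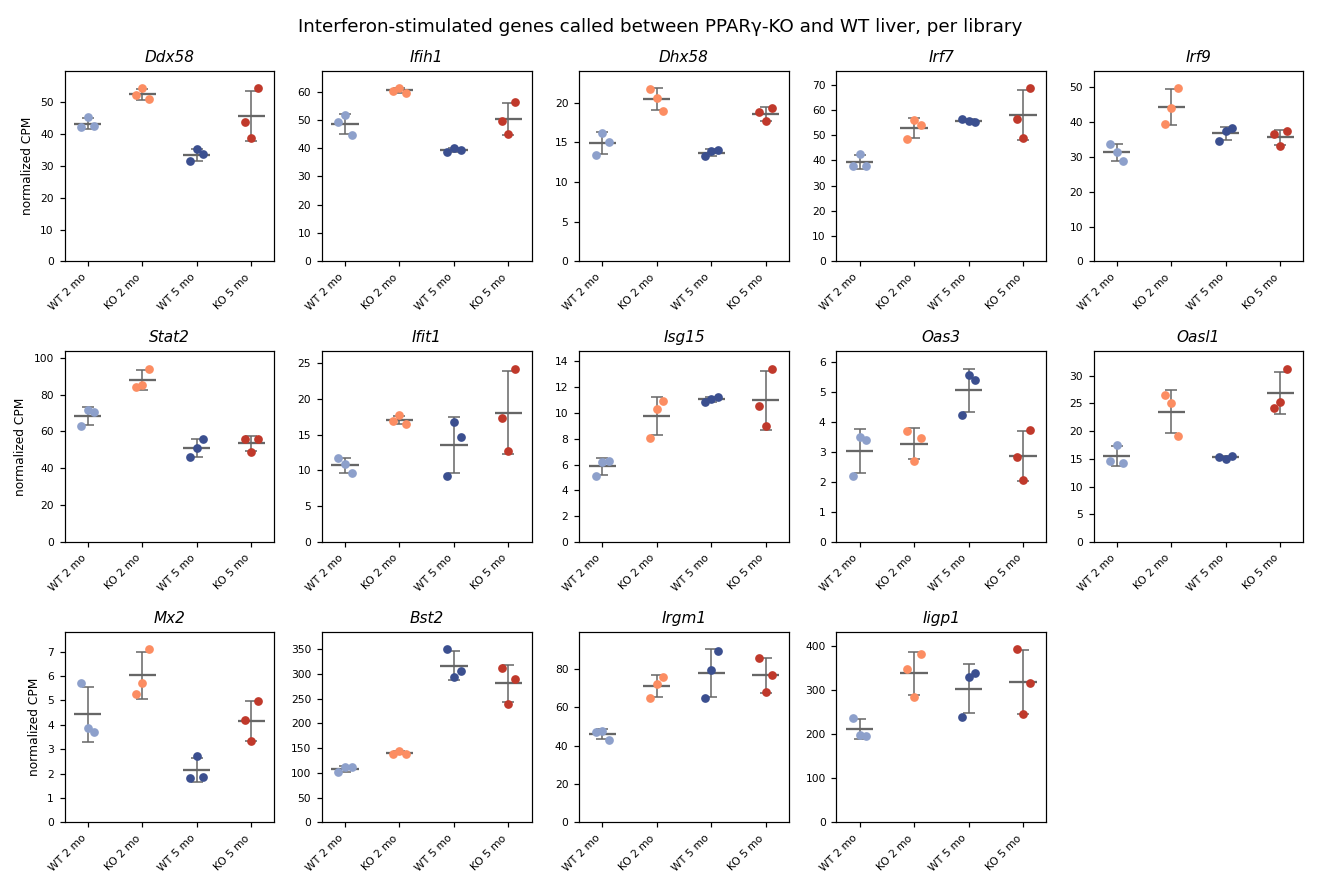
Normalized CPM of the 14 genes called between PPARγ-KO and WT at 2 or 5 months, 1 point per library, with the mean and SD of 3 libraries as bars, on axes that start at 0. For Bst2 the WT libraries moved from 102 to 113 CPM at 2 months to 293 to 350 at 5 months, and for Oasl1 the PPARγ-KO libraries lay above WT at both times.

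The second comparison was the same contrast after 5 months of FFD. Here 5 of 37 genes were higher in the PPARγ-KO-labelled livers (13.5%, against 8.9% of 14138 genes tested) and 1 was lower (2.7%, against 9.51%). The median log2 fold change was -0.07 against -0.01 over all genes, and 15 genes had a positive and 22 a negative value. The libraries were separate in 5 genes with PPARγ-KO above WT (15.8% of all genes) and in 4 with PPARγ-KO below (19% of all genes). DESeq2 called 5 higher and 3 lower, and at an unadjusted p below 0.05 edgeR had 5 in each direction, with no share of all genes counted for either. The count of 6 was 3 without WT replicate 3, which left Ifih1, Dhx58 and Oasl1, and 9 without WT replicate 1, with 4 higher and 5 lower. Kupffer cell and macrophage markers summed to 1171 to 1289 CPM in WT and 566 to 720 in PPARγ-KO libraries at 5 months, with 9 of 11 called lower, and T and NK cell markers to 8.59 to 17.1 and 3.91 to 11.2. Hepatocyte markers summed to 56633 to 60097 and 74592 to 86261. These sums were dominated by Alb, with means of 36944 CPM in WT and 57053 in PPARγ-KO livers. Of the 10 hepatocyte markers, 7 had a positive and 3 a negative log2 fold change, with 3 called higher. The part of all these markers in the differences of the list was not tested.

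All 3 RNA helicase genes were higher at 5 months, of which Ifih1 and Dhx58 had also passed at 2 months. Ifih1 stood at 38.7, 39.98 and 39.2 CPM in WT and 49.7, 44.95 and 56.3 in PPARγ-KO libraries at 5 months, 0.37 ± 0.0817 higher (adjusted p = 0.00746). Dhx58 stood at 13.3, 13.9 and 14.0 against 18.8, 17.6 and 19.4 CPM (0.45 ± 0.0922, adjusted p = 0.00444), and Ddx58 at 31.4, 35.1 and 33.8 against 43.7, 38.8 and 54.3 CPM (0.45 ± 0.111, adjusted p = 0.0168). None of the 3 overlapped between the groups, and the spread was wider among PPARγ-KO than among WT libraries, with PPARγ-KO replicate 3 highest in each. The sensor Zbp1 went the other way, at 10.0, 15.1 and 17.3 CPM in WT and 9.01, 4.51 and 7.95 in PPARγ-KO libraries, and did not pass (-0.98, adjusted p = 0.0745).

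Oasl1 had the strongest evidence of the list at 5 months, at 15.3, 15.0 and 15.6 CPM in WT and 24.3, 25.2 and 31.3 in PPARγ-KO libraries, 0.82 ± 0.104 higher (adjusted p = 0.000165). Mx2, an Mx family GTPase, stood at 1.84, 2.74 and 1.88 CPM in WT and 4.20, 3.33 and 4.98 in PPARγ-KO libraries (0.96 ± 0.237, adjusted p = 0.0132). Oas3, which makes the oligoadenylates that activate RNase L, was the 1 gene called lower, at 4.21, 5.54 and 5.38 CPM in WT and 2.83, 2.05 and 3.72 in PPARγ-KO libraries (-0.82 ± 0.228, adjusted p = 0.0249). The libraries were separate in all 3 genes, and the Mx2 and Oas3 levels were low. Ifih1, Dhx58 and Oasl1 were called higher at both times and kept their 5-month call in all 13 alternative fits, whereas Ddx58, Mx2 and Oas3 lost it without WT replicate 3. Oas genes and Mx genes lie in families of near copies, so reads may have been split between members.

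The other 8 genes called at 2 months did not differ beyond the spread at 5 months. Isg15 was at 10.8, 11.1 and 11.2 CPM in WT and 10.5, 8.97 and 13.4 in PPARγ-KO libraries (-0.01 ± 0.14, adjusted p = 0.984), and Irgm1 at 64.6, 79.1 and 89.5 against 85.8, 67.7 and 76.6 CPM (-0.01 ± 0.128, adjusted p = 0.969). Irf7 (0.07), Irf9 (-0.03), Stat2 (0.08), Iigp1 (0.08), Bst2 (-0.16) and Ifit1 (0.41) likewise overlapped between the groups, with adjusted p from 0.296 to 0.854. Failing the test does not show that the levels were equal, and for Ifit1 the PPARγ-KO libraries ran from 12.7 to 24.2 CPM.

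Among genes that did not pass at 5 months, Irf8 (-0.73, adjusted p = 0.0829) and Oas2 (-0.64, adjusted p = 0.0619) had all PPARγ-KO libraries below WT. The GTPases had a median of -0.42 with 0 of 7 called, also at an unadjusted p below 0.05 and by DESeq2, and ran from Gbp2 at -1.22 through Igtp (-0.65), Gbp6 (-0.45), Gbp3 (-0.42) and Gbp7 (-0.07). Their libraries scattered within both groups. Gbp2 was at 20.7, 34.3 and 34.8 CPM in WT and 20.8, 7.23 and 9.78 in PPARγ-KO libraries, and Igtp at 30.4, 72.7 and 77.7 against 54.4, 25.8 and 33.8 CPM, so that WT replicate 1 was the low library of its group and PPARγ-KO replicate 1 the high one. Psmb8 (-0.22), Psmb9 (-0.25), Ifi27 (0.27), Ifi35 (0.11), Ifi44 (-0.13), Xaf1 (-0.11) and Irf1 (-0.34) did not pass, nor did the effectors Ifit2 (-0.47), Ifit3 (0.01), Usp18 (0.08), Isg20 (0.04), Oas1a (-0.37), Oasl2 (-0.30), Mx1 (-0.63) and Rsad2 (0.13). The plot of log2 fold changes of PPARγ-KO against WT sets both times side by side.

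**Figure D2:**
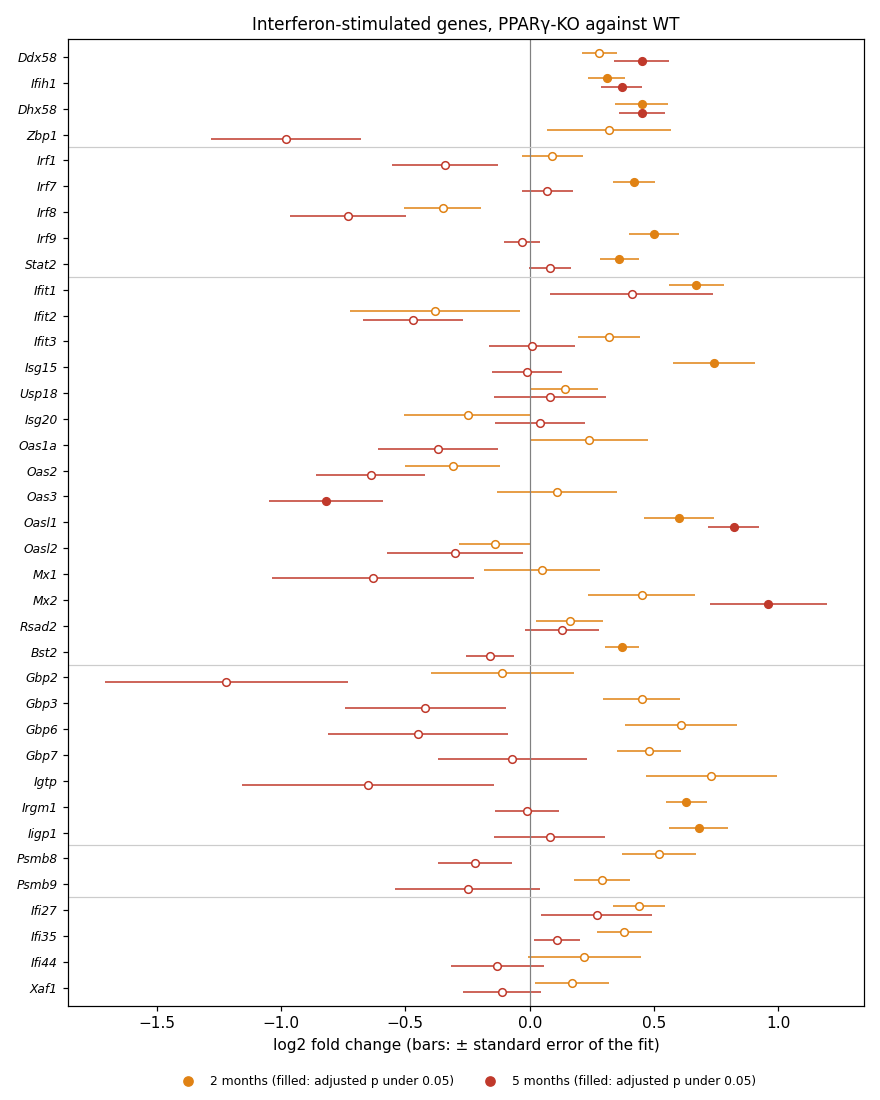
Log2 fold change of each of the 37 genes, PPARγ-KO against WT, at 2 months (orange) and 5 months (red), with the standard error of the edgeR fit as bars, filled where the adjusted p is below 0.05, and lines between roles. At 2 months 31 of 37 genes lie right of 0 and 11 are filled, and at 5 months 15 lie right of 0 and 6 are filled.

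Whether the PPARγ-KO difference itself changed between the times was tested as an interaction over all 12 libraries. The 5-month difference was smaller or more negative than the 2-month one in 32 of 37 genes, with a median change of -0.37 against 0.00 over all 15127 genes tested. After adjustment 2 genes were lower (5.41%, against 0.912% of all genes) and 0 higher (against 0.661%), by DESeq2 4 and 0, and at an unadjusted p below 0.05 the numbers were 13 lower (7.87% of all genes) and 0 higher (7% of all genes). The called genes were Irf9 (-0.55 ± 0.127, adjusted p = 0.041) and Bst2 (-0.54 ± 0.129, adjusted p = 0.0453). Irf9 was 0.50 higher in PPARγ-KO livers at 2 months and -0.03 at 5 months, and Bst2 0.37 and -0.16. Both stood close to the threshold. The count was 0 with library size alone and 0 without any 1 of WT replicates 2 and 3 or PPARγ-KO replicates 2 and 3 at either time, and 1 without PPARγ-KO replicate 1 at 2 months. Irgm1 came next (-0.65, adjusted p = 0.0599). The GTPases had the most negative median of the roles, -0.89, with 0 called, 5 of 7 at an unadjusted p below 0.05 and 1 by DESeq2. The helicases Ifih1 (0.04), Dhx58 (-0.01) and Ddx58 (0.17) and Oasl1 (0.21) had adjusted p from 0.617 to 0.977. Kupffer cell and macrophage markers moved the same way, with 5 of 11 called lower, and their part was not tested. In the plot of summed levels by role, the sensors stood at 108 to 122 CPM in WT and 140 to 144 in PPARγ-KO libraries at 2 months and at 93.4 to 104 and 106 to 138 at 5 months, whereas the GTPases went from 307 to 356 against 446 to 593 CPM at 2 months to overlapping groups at 5 months.

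**Figure D3:**
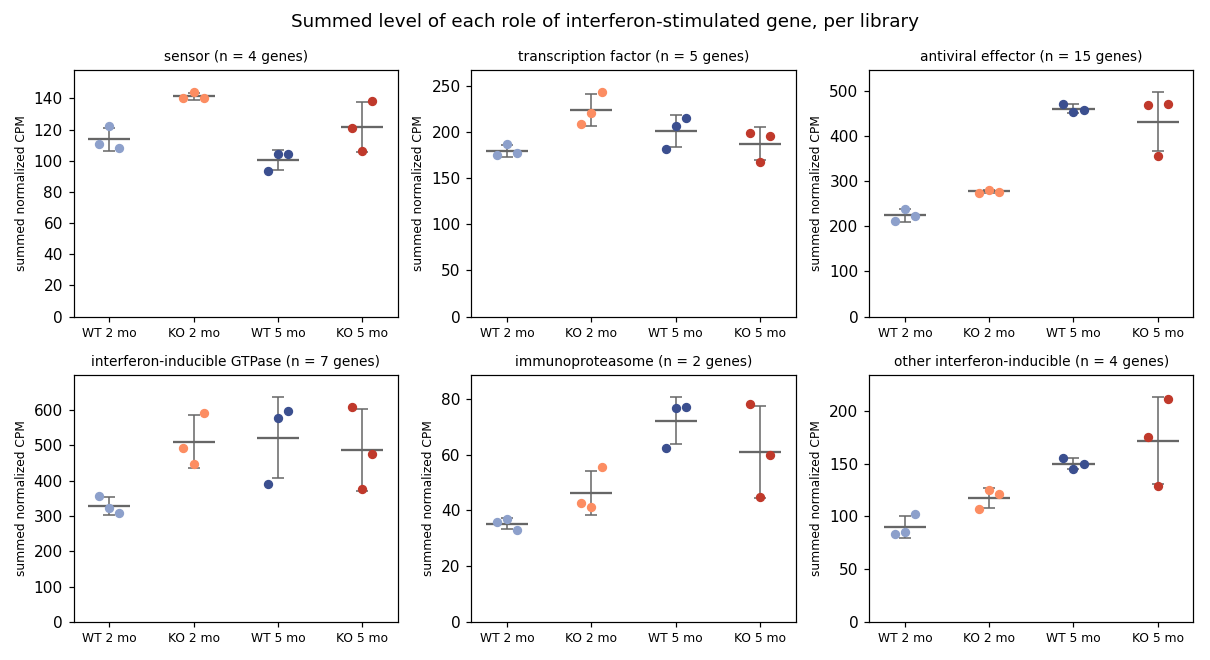
Summed normalized CPM of the genes of each role, 1 point per library, with mean and SD of 3 libraries, on axes that start at 0. The antiviral effectors, dominated by Bst2, went from 211 to 239 CPM in WT at 2 months to 453 to 472 at 5 months, and the GTPase sums at 5 months range from 376 to 608 with WT and PPARγ-KO libraries mixed.

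Over the course of the diet, WT livers gained most of these transcripts. Between 2 and 5 months in WT, 20 of 37 genes rose (54.1%, against 23.8% of 14491 genes tested) and 5 fell (13.5%, against 22.7%), with a median of 0.52 against -0.01 over all genes. The count of 25 stayed between 21 and 29 when each library was left out. Kupffer cell and macrophage markers rose alongside (8 of 11, from 474 to 616 up to 1171 to 1289 CPM), as did T and NK cell markers (3.38 to 3.81 up to 8.59 to 17.1), and their part was not tested. Whether libraries of the different times were made together is not given in the sources used here, so diet time and batch cannot be told apart. All mice were injected at 8 weeks of age, so those fed for 5 months were also older. Diet time and age cannot be told apart either. The WT libraries of both times also serve in the comparisons with PPARγ-KO above.

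Bst2 rose most, from 102, 111 and 113 CPM to 350, 293 and 306 CPM (1.54 ± 0.0888, adjusted p = 2.28e-06). Per length it was also the most abundant transcript of the list, at a mean of 234 CPM per kb over all libraries, followed by Iigp1 at 93.8, Ifi27 at 64.4 and Igtp at 19.9, and Oas3 was lowest at 0.502. Gbp2 rose by 1.52 ± 0.221 (adjusted p = 0.00104), from 8.62 to 11.9 CPM up to 20.7 to 34.8. The immunoproteasome subunits rose together, Psmb8 by 1.17 ± 0.105 and Psmb9 by 0.91 ± 0.121 (adjusted p = 1.42e-05 and 0.00017), as did 6 of 7 GTPases, with Igtp at 1.34, Gbp6 at 0.94, Gbp3 at 0.80, Irgm1 at 0.76 and Iigp1 at 0.52. With the replicate number as a block Igtp and Iigp1 did not pass (adjusted p = 0.0938 and 0.0665). Igtp overlaps the same-strand gene Irgm2 over 7974 bases, so reads of the pair may have been shared or dropped.

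Further risers in WT were the sensor Zbp1 (1.09), the factors Irf8 (0.70) and Irf7 (0.50), the effectors Oas1a (1.06), Isg15 (0.91), Isg20 (0.82), Oas3 (0.73) and Ifit3 (0.60), and Ifi27 (0.86), Ifi44 (0.74) and Ifi35 (0.57). The genes that fell were Mx2 (-1.04 ± 0.262, adjusted p = 0.00775), Oas2 (-0.61), Stat2 (-0.42), Ddx58 (-0.37) and Ifih1 (-0.30). Stat2 went from 62.9, 71.6 and 70.5 CPM to 46.1, 50.8 and 56.1 CPM in WT (adjusted p = 0.00275). Dhx58 (-0.12), Irf1 (0.34), Irf9 (0.23), Ifit1 (0.34), Ifit2 (0.27), Usp18 (0.26), Oasl1 (-0.02), Oasl2 (0.37), Mx1 (-0.18), Rsad2 (0.36), Gbp7 (-0.14) and Xaf1 (-0.04) did not pass.

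In PPARγ-KO-labelled livers, 3 of 37 genes rose over the same interval (8.11%, against 22.7% of 14478 genes tested) and 5 fell (13.5%, against 22.2%), with a median of 0.11 against -0.01 over all genes. Bst2 rose from 139, 144 and 139 CPM to 312, 239 and 290 CPM (1.00 ± 0.0874, adjusted p = 1.38e-05), Isg20, an exonuclease, from 1.76 to 2.79 CPM up to 3.79 to 5.43 (1.10 ± 0.237, adjusted p = 0.00305), and Ifi35 by 0.30 ± 0.0882 (adjusted p = 0.0178). All 3 had also risen in WT. Stat2 fell from 84.4, 85.3 and 94.1 CPM to 55.9, 48.6 and 55.8 CPM (-0.72 ± 0.0754, adjusted p = 2.75e-05), and Oas2 (-0.95), Mx2 (-0.55), Irf9 (-0.32) and Ifih1 (-0.27) fell too. Of these 5, Ifih1, Stat2, Oas2 and Mx2 had fallen in WT as well. PPARγ-KO replicate 2 at 5 months was low for much of the list, at a summed 1179 CPM against 1649 and 1554 in its group, and without it 10 genes rose and 2 fell. Kupffer cell and macrophage marker sums ran from 527 to 592 CPM at 2 months and 566 to 720 at 5 months in these livers. Single markers moved both ways, with 3 of 11 called higher and 3 lower, from -2.07 to 0.74. The difference between WT and PPARγ-KO in the change over time is the same contrast as the interaction above.

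None of the GTPases and immunoproteasome subunits passed over time in PPARγ-KO livers. At an unadjusted p below 0.05 there was 1, Gbp7 (-0.71), and DESeq2 called 1 GTPase lower and 1 immunoproteasome subunit higher. Psmb8 (0.42), Psmb9 (0.36), Gbp2 (0.38), Irgm1 (0.11), Igtp (-0.05), Iigp1 (-0.09), Gbp3 (-0.09) and Gbp6 (-0.13) had adjusted p from 0.154 to 0.931. Isg15 (0.16), Irf7 (0.13), Irf8 (0.31), Irf1 (-0.10), Ifit1 (0.08), Ifit2 (0.17), Ifit3 (0.28), Usp18 (0.20), Oas1a (0.44), Oas3 (-0.21), Oasl1 (0.19), Oasl2 (0.20), Mx1 (-0.88), Rsad2 (0.32), Ifi27 (0.68), Ifi44 (0.38), Xaf1 (-0.33), Zbp1 (-0.22), Ddx58 (-0.20) and Dhx58 (-0.14) did not pass either. Over the 5 comparisons, Irf1, Ifit2, Usp18, Oasl2, Mx1, Rsad2, Gbp7 and Xaf1 were called in none. The share of all genes called in none was not counted, so it is open whether these are few or many. The plot of changes from 2 to 5 months shows WT and PPARγ-KO for each gene.

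**Figure D4:**
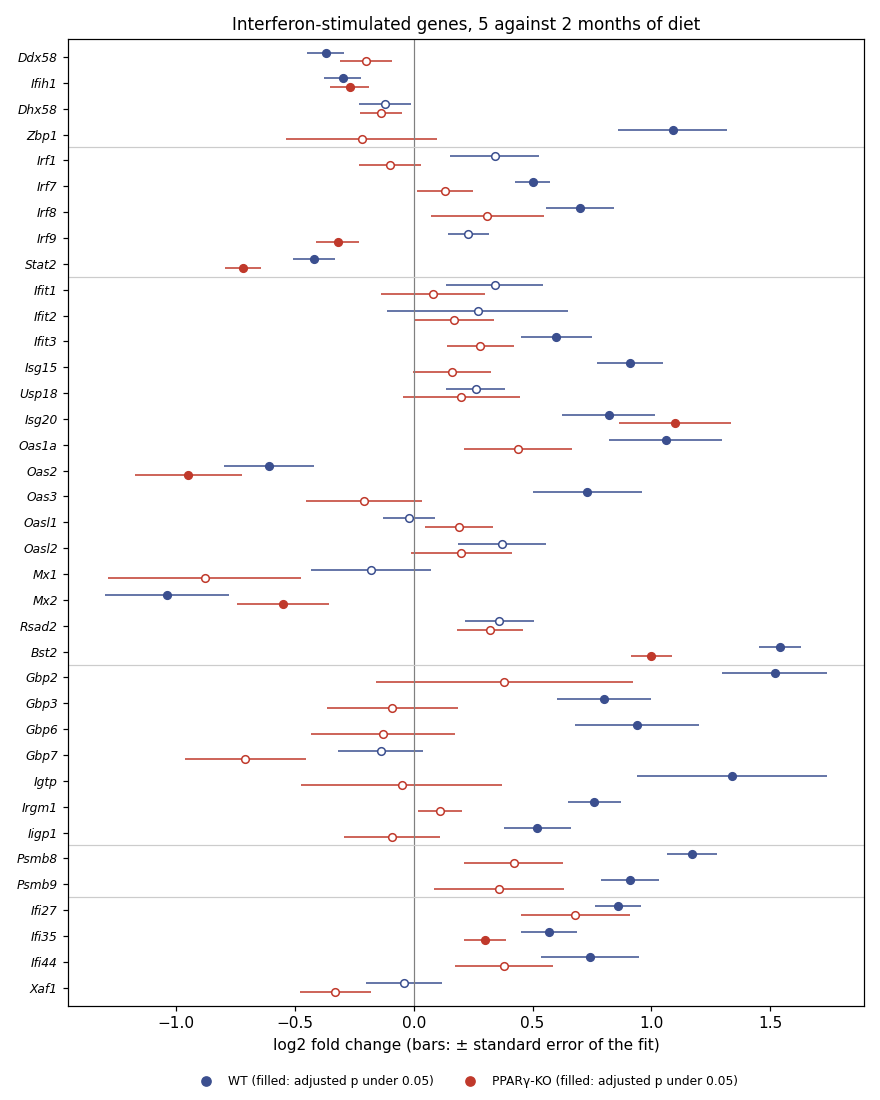
Log2 fold change of each of the 37 genes from 2 to 5 months of FFD in WT (blue) and PPARγ-KO (red), with the standard error of the edgeR fit as bars, filled where the adjusted p is below 0.05, and lines between roles. In WT 20 genes are filled right of 0 and 5 left of it, in PPARγ-KO 3 and 5, and Bst2 lies far right in both.

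The genes that make and relay interferon were looked up as a list of 40, of which 27 had enough counts to be tested. Of the ligands, Ifna1, Ifna2, Ifna4, Ifna5, Ifna6, Ifnb1, Ifne, Ifnl2 and Ifnl3 had 0 counts in all 12 libraries, so their mRNA was not detectable at this depth. A count of 0 allows up to 3 counts, or 0.112 to 0.189 CPM in a library, by counting error only. Ifng, the interferon gamma gene, had 0 counts in each WT library at 2 months and 0, 0 and 1 in PPARγ-KO, then 1, 5 and 8 in WT and 3, 0 and 0 in PPARγ-KO libraries at 5 months. The other ligands of the list, Ifnk and Il27, had 0 to 4 and 0 to 13 counts per library. The counts of Ifng, Ifnk and Il27 were too few for a test. Ifna genes beyond those named were not looked up.

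Between PPARγ-KO and WT at 2 months, edgeR called 0 of the 27 relay genes, against 1.78% of all genes higher and 1.78% lower. In a list of this size 0 lies near those shares. At an unadjusted p below 0.05, 2 were higher and 1 lower, and DESeq2 called 1 higher. At 5 months 9 were lower (33.3%, against 9.51% of all genes) and 1 higher (3.7%, against 8.9%), with a median of -0.15, and DESeq2 called 9 lower and 0 higher. The lower genes included the receptor subunits Ifnar2 (-0.37), Ifngr1 (-0.37), Ifngr2 (-0.25) and Il10rb (-0.54), the factor Irf5 (-0.72), the innate receptor Tlr7 (-0.57), the adaptors Myd88 (-0.42) and Sting1 (-0.69), and the phosphatase Ptpn6 (-0.57). Irf5, which is abundant in macrophages, was at 16.5 ± 1.72 CPM in WT and 9.98 ± 1.06 in PPARγ-KO livers (SD, n = 3, adjusted p = 0.00106). The 1 higher gene was Irf2, a repressor (0.25, edgeR adjusted p = 0.0479), which DESeq2 did not call. Ifnar1, Jak1, Jak2 and Tyk2 differed by -0.13 to 0.02 at 5 months and did not pass. The macrophage marker difference given above lay in the same direction as the lower genes, and its part was not tested.

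In WT 12 of the 27 relay genes rose over time (44.4%, against 23.8% of all genes) and 2 fell (7.41%, against 22.7%). In PPARγ-KO 3 rose (11.1%, against 22.7%) and 3 fell (11.1%, against 22.2%). In the interaction 2 were lower in edgeR (7.41%, against 0.912% of all genes) and 0 higher (against 0.661%). These were Irf5 (-0.75, adjusted p = 0.0387) and Ptpn6 (-0.53, adjusted p = 0.0337). DESeq2 called 5 lower and 0 higher.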

How the data were processed

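Liver RNA had been extracted with TRIzol and sequenced by Novogene on an Illumina NovaSeq, and reads were aligned to mm10. The study's methods name STAR as the aligner, whereas the submitters' processing notes name HISAT2. The counting program, annotation and use of strand are not given in the sources used here. Per the file headers, the authors deposited raw read counts for 54532 genes in each of 12 libraries, without normalization. Because the use of strand is unknown, reads of overlapping genes (12 genes of the list overlap another gene with counts) and of near-identical copies (Oas, Mx, Gbp, Ifit families) are uncertain.

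Groups came from the sample labels. Each comparison was fitted on its own libraries, and the interaction on all 12, in edgeR 4.0.16 (R 4.3.3): filterByExpr, TMM scaling, robust quasi-likelihood fit, two-sided F-test, and Benjamini-Hochberg adjustment over all genes tested, threshold 0.05. A gene past it is called. CPM came from 1 TMM scaling over all libraries, and a standard error is the log2 fold change divided by the root of F. Every one of the 37 genes was named. Of a relay list of 40 genes any could be named, and of a wider list of 70 at most the 3 largest rises and falls per comparison that were called, did not overlap and reached 1 CPM. The genes and lists were chosen with earlier results of these data known, and no list was tested as a set. Depth of 16367775 to 27452284 counts limits low genes most.

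The alternatives tried were another test (DESeq2 1.42.0), scaling by its size factors or by library size only, looser and stricter low-count filters (10 counts as the minimum), blocking on the replicate number, 1 fit of 12 libraries, other thresholds and leaving out single libraries. Once group means were removed over the 5000 most abundant genes, same-numbered WT and PPARγ-KO libraries correlated at 0.218, 0.323 and 0.14 at 2 months. Differently numbered ones correlated at -0.273 to 0.113. Between the times, WT libraries with different numbers reached 0.266, so values of this size do not show a pairing. The labels give the numbers only as repeats, and they served as a block in an alternative fit. No library repeated another within sampling noise, by a chi-square per gene between libraries of a group. WT replicates 2 and 3 at 5 months came closest to it, at 2.44, against 9.4 to 31.7 in the other pairs. The labels do not say whether that pair came from separate animals. The code was tested on 1 simulated data set per comparison, with known changes of 1.5 on the log2 scale in 193 to 199 of the tested genes. That is more than any change called between the genotypes in the list. For PPARγ-KO against WT at 2 months, 6.84% of the edgeR calls and 12.5% of the DESeq2 calls there were false. At 5 months these shares were 13.7% and 13.9%. For edgeR the share was 6.88% over time in WT, 5.58% over time in PPARγ-KO and 6.16% in the interaction. For DESeq2 these were 9.23%, 7.04% and 12.9%. Each of these lay above the share set by the adjusted p threshold, most of all at 5 months. Single runs do not show how much such shares vary, and smaller changes were not simulated. 1 gene of the relay list is counted in its totals but not reported here.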

Additional observations from a re-analysis of the deposited data

Results flagged for a closer look

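For Irf9 and Bst2 the difference between PPARγ-KO and WT livers was not the same at both times by the interaction test. The change was -0.55 for Irf9 (edgeR adjusted p = 0.041, 0.000699 to 0.119 over the alternatives) and -0.54 for Bst2 (adjusted p = 0.0453, 8.66e-05 to 0.0931). In Irf9 the 3 PPARγ-KO libraries lay above the 3 WT libraries at 2 months and overlapped them at 5 months, and Bst2 showed the same order. With the replicate number as a block the adjusted p was 0.0493 and 0.0433.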

How the results depend on the processing

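No called gene of the list reversed its direction under any alternative. At 2 months the count of 11 was 4 with library size alone, 18 with no filter and 1 to 11 with each library left out. At 5 months the count of 6 was 10 with no filter and 3 to 9 with each library left out. Over time the count of 8 in PPARγ-KO was 14 with no filter, 5 with an added 1.3-fold change and 6 to 12 with each library left out, and in WT the count of 25 was 21 to 29. In the interaction the count of 2 was 0 with library size alone, 4 by DESeq2, 7 with no filter, 11 at an unadjusted p below 0.05 with a 1.3-fold change, and 0 to 2 with each library left out. The cause of these moves was not tested. With the replicate number as a block the counts were 12, 6, 24, 9 and 2. At 5 months same-numbered libraries of the genotypes correlated at -0.0806, -0.0586 and -0.172, which gave no pairing there. Depth limited the low genes most, and the calls of Ifih1, Dhx58 and Oasl1 at 2 months lay closest to the threshold, at 0.0497, 0.0469 and 0.0474.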

Other observations

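A wider list of 70 interferon-responsive genes outside the 37 added a few named differences. At 2 months 4 of the 68 tested were higher in PPARγ-KO-labelled livers (5.88%, against 1.78% of all genes) and 0 lower (at an unadjusted p below 0.05, 19 and 7, and by DESeq2, 7 and 2). Ifitm3 and Ifitm2, membrane proteins that restrict virus entry, were at 313 ± 16.4 against 199.5 ± 7.28 CPM (0.65, edgeR adjusted p = 0.00286) and 60.7 ± 4.78 against 42.9 ± 2.27 (0.50, 0.013), PPARγ-KO before WT, and the GTPase Ifi47 at 22.5 ± 3.71 against 13.6 ± 1.29 (0.73, 0.0195; SD, n = 3 throughout). In the interaction Ifitm2 (-0.68, edgeR adjusted p = 0.0048) and Ifitm3 (-0.56, adjusted p = 0.0269) were the 2 genes called, both lower. They made 2.9% of the 69 tested, against 0.912% of all genes lower and 0.661% higher. At an unadjusted p below 0.05 edgeR had 29 lower (7.87% of all genes) and 1 higher (7% of all genes). DESeq2 called 7 lower and 0 higher.

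At 5 months 20 of 69 were lower in PPARγ-KO-labelled livers (29%, against 9.51% of all genes) and 2 higher (2.9%, against 8.9%). DESeq2 called 25 lower and 2 higher, and at an unadjusted p below 0.05 edgeR had 29 and 3, with no share of all genes counted for either. Ciita, the master regulator of class II antigen presentation genes, was at 4.26 ± 1.46 against 10.3 ± 3.25 CPM (-1.25, adjusted p = 0.0258), Serpina3g at 11.8 ± 2.35 against 27.9 ± 7.88 (-1.23, 0.0263) and Gbp4 at 3.12 ± 1.27 against 7.32 ± 1.50 (-1.20, 0.00864). Lgals9 (0.32) and Parp12 (0.31) were higher. Over time Ubd, a ubiquitin-like protein gene, rose by 3.53 in WT and 3.85 in PPARγ-KO, and the chemokine gene Cxcl11 fell by 1.59 and 1.46 on the log2 scale.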
